A study of Mus musculus with 13 samples.

Results

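The regions described here lie nearest to genes for the enzymes that write and erase methyl and acetyl groups on histones. They were taken from 3 tables of regions with changed 5-hydroxymethylcytosine (5hmC) in mouse knee cartilage, by the name of the nearest gene: the stem Kmt, Setd or Prdm (methyltransferases and their relatives), Kdm (demethylases), Kat (acetyltransferases) or Hdac (deacetylases), followed by a number. This rule found 481 of 181833 listed regions and 60 of 28188 gene names. Of these, 108 of 43378 regions, at 41 genes, were listed for WT DMM against WT sham. There were 179 of 65969, at 54 genes, for MUT DMM against WT DMM, and 194 of 72486, at 52 genes, for MUT DMM against WT sham. The rule used only names, not values, although every listed region holds a window that had already passed the authors' own p-value for its comparison.

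WT sham is knee cartilage of male TET1+/+ mice of the mixed strain B6;129S4 whose joint was opened without further surgery. WT DMM is cartilage of TET1+/+ mice of that strain whose medial meniscus was removed, per the protocol (DMM, destabilisation of the medial meniscus, which leads to osteoarthritis). MUT DMM is cartilage of mice labelled TET-/- after the same surgery, and the labels do not describe the mutant allele further. All groups share the sex, the strain and the time of 6 weeks after surgery. The mice were 3 to 4 months old by the design text, or 4 to 6 months old by the protocol. The protocol places controls on the opposite leg, so a sham joint may come from an animal with an operated knee. Each group has 3 samples in the labels, and MUT sham is not analysed here, so genotype could not be compared without surgery. The mark was read by reduced representation hydroxymethylation profiling, in which only fragments with 5hmC at a CCGG end survive a repeated digest and are counted.

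Histone methyltransferases place methyl groups on lysines, some of which mark active promoters and enhancers and others of which mark silent chromatin, and demethylases of the Kdm group remove them. Acetyltransferases open chromatin by acetylating lysines, and deacetylases reverse this. HDAC4, a class IIa deacetylase, holds back hypertrophy of chondrocytes by binding MEF2C and RUNX2, and it is kept in the cytoplasm when kinases phosphorylate it. 5hmC itself is made from 5-methylcytosine by TET enzymes and is found within gene bodies and at enhancers.

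A listed region overlapped a promoter window at 1 of these genes in WT DMM against WT sham, at 4 in MUT DMM against WT DMM and at 2 in MUT DMM against WT sham, and 6 of the windows are shown because the assay reads only CCGG ends. Each sequence is the 250 bases before a RefSeq start site in build GRCm38.p6 (mm10 coordinates), written 5′ to 3′ on the gene's strand with every CCGG in capitals. CCGG reads the same on both strands. Apart from that of Setd2, each window shown lies inside the RefSeq bounds of its gene. The Setd2 window crosses the first base of the gene, chr9:110532500. None of the start sites is therefore the outermost. The first 4 windows lay under regions that were higher in MUT DMM than in WT DMM, Kat5 under a region higher in WT DMM than in WT sham, and Hdac7 under a region lower in MUT DMM than in WT sham.
Kmt2d promoter, chr15:98871206-98871455, minus strand: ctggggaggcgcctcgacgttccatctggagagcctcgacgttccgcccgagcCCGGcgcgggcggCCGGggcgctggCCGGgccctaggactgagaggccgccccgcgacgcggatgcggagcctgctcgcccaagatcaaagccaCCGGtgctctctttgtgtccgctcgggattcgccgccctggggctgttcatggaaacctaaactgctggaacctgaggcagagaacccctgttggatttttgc
Setd2 promoter, chr9:110532347-110532596, plus strand: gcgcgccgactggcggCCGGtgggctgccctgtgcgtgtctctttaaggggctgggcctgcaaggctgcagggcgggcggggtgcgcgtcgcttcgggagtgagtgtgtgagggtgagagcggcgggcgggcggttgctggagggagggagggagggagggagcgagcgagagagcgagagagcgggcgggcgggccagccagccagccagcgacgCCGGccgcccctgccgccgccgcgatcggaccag
Setd4 promoter, chr16:93603816-93604065, minus strand: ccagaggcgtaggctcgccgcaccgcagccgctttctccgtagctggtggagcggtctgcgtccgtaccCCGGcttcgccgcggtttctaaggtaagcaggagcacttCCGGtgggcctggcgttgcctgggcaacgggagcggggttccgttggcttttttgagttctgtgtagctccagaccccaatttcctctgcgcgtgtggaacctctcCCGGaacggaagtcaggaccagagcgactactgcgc
Setd6 promoter, chr8:95715663-95715912, plus strand: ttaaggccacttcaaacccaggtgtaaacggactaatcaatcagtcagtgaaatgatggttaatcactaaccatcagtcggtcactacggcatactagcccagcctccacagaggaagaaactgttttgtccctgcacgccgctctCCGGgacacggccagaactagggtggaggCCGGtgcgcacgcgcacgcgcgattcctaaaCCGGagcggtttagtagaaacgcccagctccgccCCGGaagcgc
Kat5 promoter, chr19:5610095-5610344, minus strand: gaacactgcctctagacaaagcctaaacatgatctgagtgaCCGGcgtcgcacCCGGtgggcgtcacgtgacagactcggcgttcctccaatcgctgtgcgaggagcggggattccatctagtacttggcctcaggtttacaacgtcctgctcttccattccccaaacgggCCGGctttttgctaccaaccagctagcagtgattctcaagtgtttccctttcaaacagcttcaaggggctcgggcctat
Hdac7 promoter, chr15:97814864-97815113, minus strand: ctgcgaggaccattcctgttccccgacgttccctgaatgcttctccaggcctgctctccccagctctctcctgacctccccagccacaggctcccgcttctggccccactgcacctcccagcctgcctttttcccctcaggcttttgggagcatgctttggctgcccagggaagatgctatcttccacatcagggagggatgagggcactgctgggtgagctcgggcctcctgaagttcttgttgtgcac
The windows held 4, 2, 3, 4, 3 and 0 copies of CCGG, in the order shown, and of these 4, 2, 1, 3, 2 and 0 lay in the overlapping part. At least 1 CCGG was present in 47.1% of the 32851 promoter windows of this length in the RefSeq table, and 3 or more in 15.5%. Of the 60 gene names, 42 had a window in that table.

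The depth of the libraries bears on every value given here. The deposited values are normalized counts, and 1 sequenced read was worth 0.171 to 15.7 of them, so depth could be recovered. The WT DMM library listed first held almost no reads and is called the nearly empty one: it had 4726 reads in the regions listed for WT DMM against WT sham, where the other libraries had 436852 to 2187392, and it was at 0 in 104 of the 108 member regions. A count of 0 in it allows up to 47.0 normalized counts, taking 3 reads as the limit for counting error. It had 52972 reads in MUT DMM against WT DMM, where 128 of 179 member regions were at 0 and a 0 allows 28.7 normalized counts. A pair of the 3 MUT DMM entries was identical in every region and was counted once, which left a deeper and a shallower library. Compared with WT DMM, these had 5889464 and 407929 reads in listed regions. Where a WT DMM mean is given, it includes the nearly empty library unless stated. Regions are called changed where the adjusted p deposited by the authors was under 0.05. Chondrocyte markers are known to be high in cartilage, but a table of selected 5hmC regions shows no expression. Changed regions were listed at 5 to 9 of the 10 chondrocyte markers, and also at 4 of 5 blood, 4 or 5 of 5 endothelial, 3 to 5 of 5 skeletal muscle and 3 or 4 of 5 adipocyte markers. Their part in the results was not tested, and a change within cells cannot be told apart from a change in the mix of cells.

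After DMM in wild-type cartilage nearly all listed regions of these enzymes had a higher mean 5hmC, most of them at low levels. Of the 108 regions, 106 changed, 100 of them higher and 6 lower in WT DMM. The share higher was 92.6% of listed member regions, and across all listed regions it was 93.2%. The share lower was 5.56% of members and 6.53% of all. Of the 2 regions that did not pass, 1 was at Prdm11. Member regions that were higher had a median of 6.64 normalized counts in WT DMM and 2.41 in sham, with a median ratio of 2.66 against 2.67 over all higher regions. The direction was common to the whole table. It rested on regions of low signal: where the larger group mean reached 10 normalized counts, 9 member regions were higher and 6 lower, and 77.2% of all such changed regions were higher.

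All classes had more regions higher than lower in this comparison: Kmt had 4 and 1, Setd 11 and 1, Prdm 22 and 1, Kdm 27 and 1, Kat 18 and 0, and Hdac 18 and 2. Among the lysine methyltransferases, the Kmt2c region at chr5:25281201-25281420, inside the gene for a subunit that methylates histone H3 at enhancers, read 0, 4.00 and 13.54 in the WT DMM libraries. The sham libraries read 2.24, 2.15 and 1.20. Setd3, which encodes an actin histidine methyltransferase despite its name, had 9.34 and 15.62 in the deeper WT DMM libraries, 0 in the nearly empty one, and 1.92, 2.15 and 2.05 in sham (chr12:108118161-108118440, authors' adjusted p = 0.000272). In both genes the 2 read WT DMM libraries stood above all sham libraries and the nearly empty one below.

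Setd4, a SET-domain methyltransferase, had its most significant region 65498 bases from the gene, at chr16:93516681-93516960. It read 0, 5.34 and 18.74 in WT DMM and 3.20, 2.86 and 2.05 in sham. Without the third-listed WT DMM library its mean fell below that of sham, by 0.013 on the log2 scale. The mean left then includes the 0 of the nearly empty library, while the second-listed value was above all sham values. Prdm16, a zinc finger regulator of brown fat and of skeletal development, had 0, 8 and 12.50 against 1.92, 3.58 and 1.54 at chr4:154623701-154623900. Prdm1, the repressor BLIMP1, had 0, 8 and 13.54 against 2.56, 4.29 and 1.71 at chr10:44531741-44531960. This region lies 241 bases from the gene by the authors' measure, but farther by the RefSeq bounds, which end at 44528558. For these Prdm genes the 2 read libraries again lay above all 3 sham libraries.

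The smallest adjusted p among the higher regions was shared by Kdm4a, Kdm4c and Kdm2a. Kdm4a encodes a demethylase of H3 lysines 9 and 36. At chr4:118184241-118184500 it read 0, 10.67 and 34.36 in WT DMM and 3.20, 4.29 and 5.30 in sham, a 3.52-fold higher mean (authors' adjusted p = 0.000264). Kdm4c, its close relative, had 0, 6.67 and 17.70 against 2.56, 2.86 and 1.20. Kdm2a, a demethylase that binds unmethylated CpG islands, had 0, 8 and 21.87 against 4.16, 2.86 and 2.05. The 2 member regions whose groups did not overlap, with all 3 WT DMM libraries above all 3 sham libraries, were at Kdm2a and at Kdm3b and are named here after their values were seen. At the Kdm2a region, chr19:4325781-4326060, the values were 15.68, 12.01 and 27.07 against 6.09, 8.58 and 8.03, with the first value resting on 1 read.

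Kat6b and Kat6a encode the catalytic subunits of the MORF and MOZ acetyltransferase complexes. The leading Kat6b region had 0, 5.34 and 19.78 in WT DMM and 1.60, 2.86 and 3.25 in sham. At Kat6a the values were 0, 1.33 and 26.03 against 3.20, 4.29 and 3.08, so that only the third-listed library was above sham, and without it WT DMM fell below sham by 1.44 on the log2 scale. The region over the Kat5 promoter window shown above had 0, 8 and 6.25 in WT DMM against 1.28, 2.15 and 1.20 in sham (authors' adjusted p = 0.00229). Kat5 is the TIP60 acetyltransferase of the DNA damage response. Regions over promoter windows were named for their position after the data were seen.

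The lower regions were few and lay at sites with strong sham signal. The 6 regions were at Kmt2d, Setd7, Prdm16, Kdm2b, Hdac7 and Hdac11, with sham means of 51.7 to 70.4 and WT DMM means of 29.9 to 39.8. At Prdm16, chr4:154359541-154359760, WT DMM read 0, 65.37 and 35.40 and sham 53.18, 52.94 and 59.81 (authors' adjusted p = 0.00194, 1.65-fold lower mean). At Kmt2d, which encodes the enhancer methyltransferase MLL4, the values were 0, 62.70 and 42.69 against 56.70, 52.22 and 59.81. In both, the second-listed WT DMM library was above every sham library, so the groups overlapped. In all 6 the nearly empty library was at 0. A 0 there allows up to 47.0 normalized counts, which is under all 6 sham means. It is also under the second-listed WT DMM value at Prdm16 and at Kmt2d. Prdm11 did not pass the authors' test (adjusted p = 0.067) although its groups did not overlap: WT DMM read 31.35, 46.69 and 32.28, and sham 82.97, 85.13 and 91.94.

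The spread within WT DMM set how many of these changes could be told from the spread between libraries. Groups did not overlap in 2 of the 100 higher member regions, a share of 1.07% over all changed higher regions, and in 0 of the 6 lower ones, where it was 26.2% over all. Without the nearly empty library the counts were 82 of 100, with 85.3% over all, and 0 of 6, with 31% over all. limma, fitted to all 43378 regions on log2(normalized count + 1), called 0 member regions at adjusted p under 0.05, with 0 at unadjusted p under 0.05, and 7 lower regions in the whole table, or 0.0161%. Left without the nearly empty library, limma called 79 higher member regions, with 75.9% of all regions called higher, and 1 lower, with 1.87% of all. That lower region was Prdm11, which fell by 1.14 (SE 0.313) on the log2 scale with limma's adjusted p = 0.0187. These regions had been selected on the same libraries, so limma is no independent check.

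**Figure D1:**
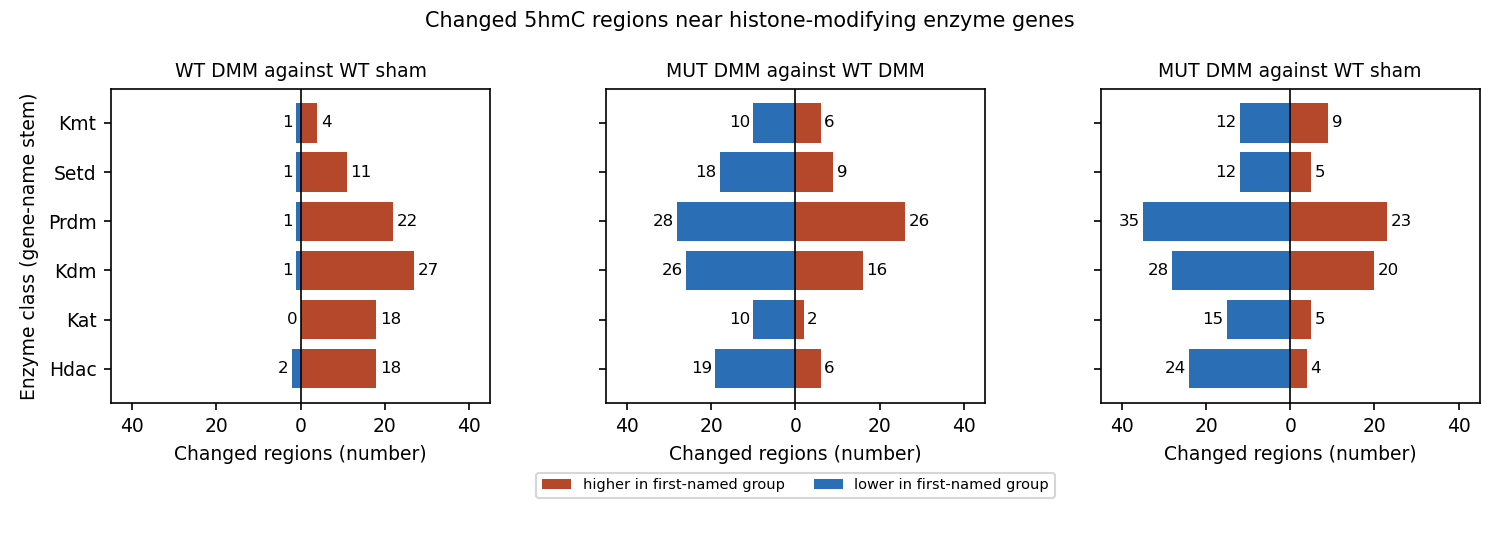
Number of changed regions (authors' adjusted p under 0.05) of each enzyme class, to the right where the first-named group had the higher mean and to the left where it had the lower mean. Nearly all bars lie to the right for WT DMM against WT sham, and for both comparisons of MUT DMM each class has more lower than higher regions.

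Compared with WT DMM, cartilage of mutant mice after the same surgery had a lower mean 5hmC at most of the listed regions of these enzymes. This did not hold where the larger group mean reached 10 normalized counts. Of 179 regions 176 changed, 65 higher and 111 lower in MUT DMM. Higher regions were 36.3% of listed members and 34.2% of all listed regions, and lower regions were 62% and 64.7%. The 3 that did not pass were at Kdm2a, Kdm2b and Setd1b. The higher and the lower regions differed in level: higher ones had a mutant median of 29.4 beside 13.96 for WT DMM, and lower ones 2.25 beside 6.73. No read of the nearly empty library fell in 58 higher and 68 lower regions. Such zeros pull the WT DMM mean down, which widens the gap for higher regions and narrows it for lower ones. With that library left out, 64 members were higher in place of 65. Among changed regions whose larger group mean reached 10 normalized counts, 63 members were higher and 35 lower, so that the majority turned, and 58.4% of all such regions were higher. The larger mean is that of MUT DMM for higher regions and of WT DMM for lower ones. Zeros of the nearly empty library therefore make this filter harder to pass for lower regions. How far this turned the majority was not tested. In 63 of the 111 lower regions the shallower MUT DMM library held exactly 1 read, worth 3.55 normalized counts, and in 18 it held none.

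Lower regions outnumbered higher ones in each class, with 6 higher and 10 lower for Kmt, 9 and 18 for Setd, 26 and 28 for Prdm, 16 and 26 for Kdm, 2 and 10 for Kat, and 6 and 19 for Hdac. Whether the classes differed was not tested, since regions of a gene share libraries and sequence. Groups did not overlap in 36 of the 65 higher regions, with 67% over all changed higher regions, and in 30 of the 111 lower ones, with 28.6% over all. Without the nearly empty WT DMM library these were 38 and 82, with 70.5% and 81.7% over all.

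Of the 4 promoter windows under higher regions, that of Setd2 had no overlap between groups. Setd2 encodes the enzyme that trimethylates H3 lysine 36 along transcribed genes. At chr9:110532141-110532660, which covers the whole window, the deeper and shallower MUT DMM libraries read 61.30 and 63.98 and WT DMM read 0, 58.67 and 35.31. Both mutant libraries were above all WT DMM libraries, the second-listed one by a small margin (authors' adjusted p = 0.00021, limma's adjusted p = 0.675, and 0.252 without the nearly empty library). Setd4 read 41.41 and 31.99 against 0, 39.11 and 24.35, and Setd6, a methyltransferase with non-histone targets, 33.22 and 28.43 against 0, 28.58 and 14.61. Kmt2d read 25.97 and 17.77 against 0, 23.32 and 8.52. In these 3 the second-listed WT DMM library lay within the range of the mutant libraries, so their groups overlapped. Without windows on chromosome 18, 4 of the 65 higher member regions overlapped a promoter window and 0 of the 111 lower ones, which are 6.15% and 0%. Over all changed regions the shares were 9.65% of higher and 0.989% of lower ones.

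**Figure D2:**
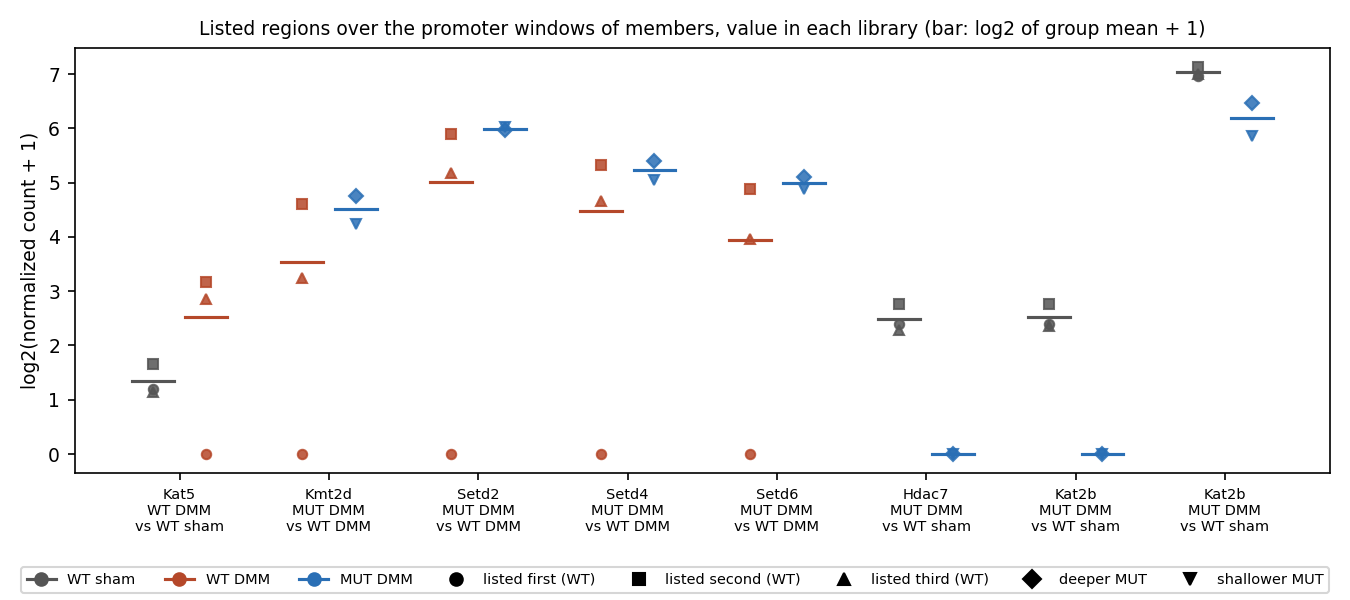
Value of each library, as log2(normalized count + 1), at the 8 listed regions that overlap a promoter window of these genes, by comparison, with a bar at the log2 of the group mean + 1. Windows on chromosome 18 were left out. The WT DMM library listed first is at 0 in the 5 regions where it was measured, and both MUT DMM libraries are at 0 at Hdac7 and at the first Kat2b window.

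The named regions away from promoter windows were lower in the mutant, apart from 1 at Prdm11. Prdm16 had a region at chr4:154572781-154573060 with 1.17 and 0 in MUT DMM and 9.56, 8.27 and 6.70 in WT DMM, so that the groups did not overlap. The mutant values were 5 and 0 reads. Prdm2, also known as RIZ, a methyltransferase-like tumour suppressor, had 1.40 and 3.55 against 0, 6.77 and 12.78. Kdm4c had both well-read WT DMM libraries far above the mutant, with 14.51 and 10.66 in MUT DMM and 0, 27.83 and 63.92 in WT DMM at chr4:74415101-74415480, 8242 bases from the gene (authors' adjusted p = 3.51e-05, limma's adjusted p = 0.99, and 0.00322 without the nearly empty library).

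Kat2b, the PCAF acetyltransferase, read 21.53 and 24.88 in MUT DMM and 19.12, 50.40 and 45.66 in WT DMM at chr17:53570681-53571000. The nearly empty library, with 2 reads, lay just under the mutant values and the other two well above. Hdac1, a class I deacetylase of the NuRD, Sin3 and CoREST complexes, read 34.39 and 24.88 against 38.24, 72.96 and 56.62 at chr4:129522281-129522600, with no overlap (limma's adjusted p = 0.675, and 0.0133 without the nearly empty library). Kmt2c read 0.47 and 3.55 against 0, 2.26 and 10.96, Setd4 0.94 and 3.55 against 0, 3.01 and 18.26, and Kdm2b 0.47 and 3.55 against 0, 3.76 and 7.31. In each of these 3 the mean of WT DMM fell below that of MUT DMM once the third-listed WT DMM library was left out. The WT DMM mean then includes the 0 of the nearly empty library. At Kdm2b the second-listed value of 3.76 was above both mutant values. Kmt2d, with 0.47 and 3.55 against 0, 6.02 and 8.52, and Kat6a, with 0.94 and 3.55 against 0, 7.52 and 8.52, kept both well-read WT DMM libraries above the mutant.

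The higher region of smallest adjusted p was at Prdm11. It read 34.16 and 28.43 in MUT DMM and 19.12, 21.06 and 12.18 in WT DMM at chr2:92973581-92973860 (authors' adjusted p = 3.55e-05). Both mutant libraries lay above all WT DMM libraries. It starts at the base where the Prdm11 region of the surgery comparison starts. Both comparisons use the WT DMM libraries, so these values are not independent. limma called 0 member regions in the MUT DMM against WT DMM table and 0 regions in all, with 1 higher and 6 lower members, and 743 higher and 2126 lower regions in all, at unadjusted p under 0.05. Without the nearly empty library it called 8 higher and 16 lower, with 5.84% and 9.88% over all regions.

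Against wild-type sham, the mutant DMM cartilage had the most member regions and the least overlap. Of 194 regions 192 changed, 66 higher and 126 lower in MUT DMM, and those at Prdm14 and Prdm1 did not pass. Higher regions were 34% of listed members and 43.2% of all listed regions, and lower regions 64.9% and 56.1%. Groups did not overlap in 54 of 66 higher regions, with 75.2% over all, and in 115 of 126 lower ones, with 87.5% over all. Medians were 29.97 in MUT DMM and 12.8 in sham for higher regions, and 0.735 and 9.71 for lower ones. The deeper MUT DMM library held no read in 44 of the lower regions and the shallower one none in 96. A 0 allows up to 2.21 normalized counts in the deeper library and 28.3 in the shallower, so a 0 in the shallower library alone shows no loss at most of these sites.

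The Hdac class had 4 higher and 24 lower regions, and Kat 5 and 15. Kmt had 9 and 12, Setd 5 and 12, Prdm 23 and 35, and Kdm 20 and 28. Hdac7, a class IIa relative of HDAC4 that is also studied in the growth plate, had 6 changed regions, each lower in MUT DMM. At chr15:97819401-97820220 it read 30.93 and 28.34 in MUT DMM and 70.53, 108.82 and 94.31 in sham, with no overlap (3.08-fold lower mean, limma's adjusted p = 0.0098). Its neighbour at chr15:97820321-97820700 was listed with the same bounds in both comparisons of MUT DMM. It read 9.57 and 9.45 against 17.50, 46.31 and 34.12 in sham, and 3.04 and 3.55 against 0, 17.30 and 14.61 in WT DMM. Over the Hdac7 promoter window shown above, which lies inside the gene (chr15:97792661-97844502), the mutant libraries were at 0 and sham read 4.24, 5.79 and 3.88. Across all 3 comparisons each of the 10 changed Hdac7 regions was lower in the first-named group, although the single WT DMM region against sham overlapped between groups.

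Kat2b had 1 higher and 7 lower regions. At chr17:53603781-53604160 it read 8.10 and 0 in MUT DMM against 31.29, 37.05 and 26.35 in sham (limma's adjusted p = 0.0357). A pair of its promoter windows lay under lower regions, with 0 and 0 against 4.24, 5.79 and 4.16 at the first and 87.63 and 56.68 against 124.61, 138.93 and 127.88 at the second. The first of these windows held 0 copies of CCGG and the second, which lies inside the gene, held 1. Kat6b had 3 higher and 4 lower regions, and the one of smallest adjusted p was higher, with 64.80 and 132.26 against 49.31, 50.94 and 49.65 at chr14:21482221-21482500 (1.97-fold higher mean, limma's adjusted p = 0.0877).

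Among the methyltransferases, Prdm16 had 2 higher and 11 lower regions. At chr4:154572281-154573060, which contains the Prdm16 region named for MUT DMM against WT DMM, it read 56.70 and 47.24 in MUT DMM and 107.11, 114.61 and 107.08 in sham (2.11-fold lower mean, limma's adjusted p = 0.0147). Both mutant libraries were near each other and far below sham. Prdm2 had 4 higher and 12 lower regions. Its leading one, 244332 bases from the gene, was at 0 in both mutant libraries and read 4.24, 26.63 and 11.10 in sham. Setd1b, a subunit of a COMPASS complex that methylates H3 lysine 4, had 10.31 and 0 against 31.82, 35.89 and 33.84 (limma's adjusted p = 0.0438). Setd8, named Kmt5a in RefSeq and known to monomethylate histone H4, had 1.47 and 0 against 8.48, 8.10 and 8.60, and its 4 changed regions were all lower. Kmt2d was at 0 in both mutant libraries and read 4.77, 5.79 and 7.77 in sham. Kmt2a, the MLL1 methyltransferase, had 5.15 and 0 against 99.16, 13.89 and 9.43, where a single sham library carries most of the mean (limma's adjusted p = 0.0753).

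The demethylases held the most significant higher region. Kdm2a read 78.79 and 85.02 in MUT DMM and 37.12, 46.31 and 48.54 in sham at chr19:4397121-4397320, a 1.86-fold higher mean with no overlap (authors' adjusted p = 2.05e-05, limma's adjusted p = 0.0433). An overlapping Kdm2a region was listed for MUT DMM against WT DMM with 54.52 and 74.64 against 0, 39.87 and 29.22, but the authors' adjusted p there was 1. Kdm2b read 106.03 and 75.58 against 73.18, 68.30 and 82.94, so the shallower mutant library lay within the sham range. Kdm4a was at 0 in both mutant libraries and read 4.77, 5.79 and 5.55 in sham. A strong signal, named after its values were seen, lay near Kdm6a, the X-linked H3 lysine 27 demethylase, with 689.96 and 614.06 in MUT DMM against 439.59, 549.91 and 576.43 in sham. Both mutant libraries lay above sham, with a mean ratio of 1.25, but limma did not call the region (limma's adjusted p = 0.119).

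limma called 17 higher and 88 lower of the 194 member regions, and 8.19% and 39% of all regions. When each sham library was left out, in listed order, the higher calls were 3, 2 and 4 and the lower calls 64, 63 and 65. They were 57 and 97 without the deeper MUT DMM library. With the larger mean at 10 or more normalized counts, 57 changed members were higher and 59 lower, and 57.9% of all such regions were higher. Neither leaving out a library nor scaling to equal totals turned the direction of a named region in this comparison. Fitted only to regions with a larger mean of at least 10, limma called 0 members, with 15 higher and 36 lower at unadjusted p under 0.05.

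**Figure D3:**
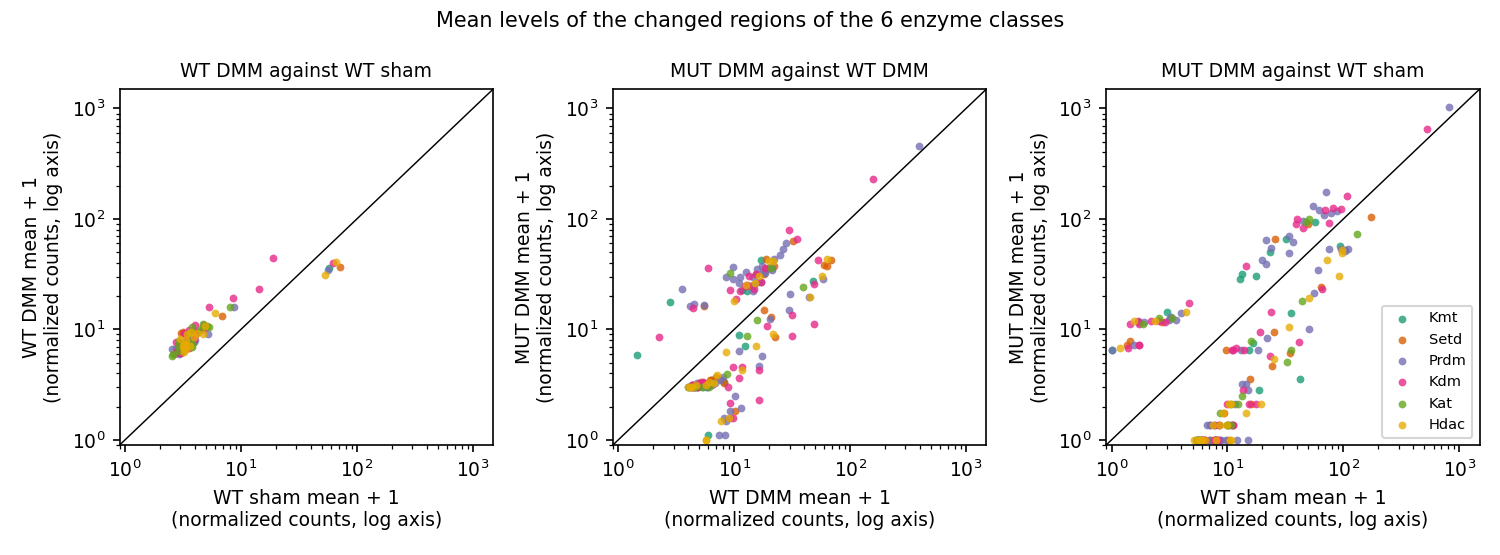
Mean normalized count + 1 of the 2 groups at each changed member region, on log axes, coloured by class, with the line of equal means. WT DMM regions lie in a tight cloud above the line with 6 points below it at high sham levels, and in both comparisons of MUT DMM the lower regions gather near the bottom of the axis.

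**Figure D4:**
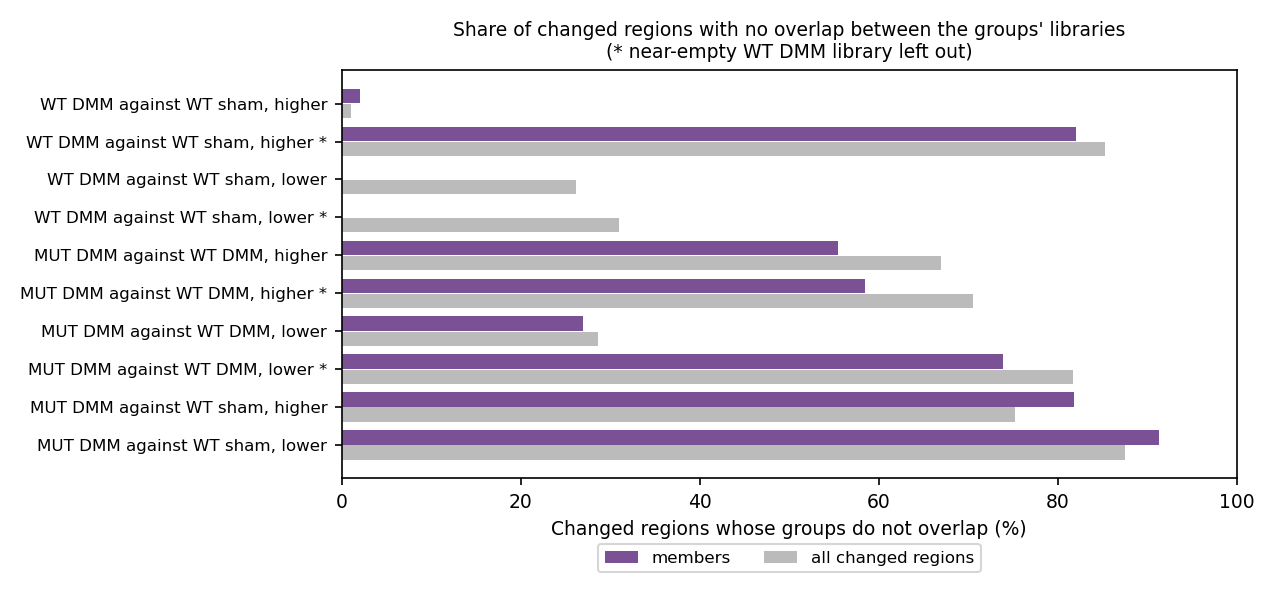
Share of changed regions in which every library of one group lies beyond every library of the other, for members and for all changed regions, by comparison and direction, with an asterisk where the nearly empty WT DMM library is left out. The lower regions of WT DMM against WT sham show 0% of 6 members and 26.2% of all, and leaving that library out raises the share for WT DMM against WT sham, higher, from 2% to 82% of members.

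Hdac4 had the most changed regions of the deacetylases, 21 over the 3 tables. RefSeq places the gene at chr1:91928779-92195702. Its 7 regions were all higher in WT DMM than in sham, its 6 regions were all lower in MUT DMM than in WT DMM, and of 8 regions 1 was higher and 7 lower in MUT DMM than in sham. The directions of the first 2 comparisons were those of most regions of the tables.

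In WT DMM against sham the region of smallest adjusted p lay 136969 bases from the gene by the authors' measure, at chr1:92288361-92288620. It read 0, 12.01 and 9.37 in WT DMM and 1.28, 2.86 and 1.88 in sham (3.55-fold higher mean, authors' adjusted p = 0.000766). The pair of well-read WT DMM libraries lay above all sham libraries, and limma's adjusted p of 1 became 0.0187 without the nearly empty library. At chr1:91903581-91903840 the values were 0, 9.34 and 8.33 against 2.24, 2.86 and 1.54, and at chr1:92002121-92002340 they were 0, 10.67 and 13.54 against 2.24, 5.72 and 3.08. Both again had the 2 well-read libraries above sham. In the other 4 regions most of the WT DMM mean came from the third-listed library. They read 0, 4.00 and 18.74 against 1.28, 4.29 and 3.25 at chr1:91975381-91975620, and 0, 5.34 and 19.78 against 2.88, 3.58 and 3.08 at chr1:92137141-92137420. The 2 regions between 10169 and 16769 bases from the gene by the authors' measure, but inside its RefSeq bounds, read 0, 1.33 and 17.70 against 1.92, 2.86 and 2.05, and 0, 2.67 and 15.62 against 1.92, 2.86 and 1.71. Without the third-listed library the mean of WT DMM was below sham in all 4, by 0.188 to 0.977 on the log2 scale. That mean includes the 0 of the nearly empty library. At chr1:92137141-92137420 the second-listed value, too, was above all sham values.

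The intragenic Hdac4 region at chr1:92088661-92089320 had the smallest adjusted p of all lower member regions in MUT DMM against WT DMM. It read 19.65 and 17.77 in MUT DMM, or 84 and 5 reads, and 38.24, 46.64 and 48.09 in WT DMM, or 4, 62 and 79 reads. Both mutant libraries lay below all WT DMM libraries, the nearly empty one included. The mean was 2.37-fold lower (authors' adjusted p = 8.16e-07), with a log2 difference of -1.20 (SE 0.679) and limma's adjusted p = 0.675. Without the nearly empty library limma's adjusted p was 0.0123.

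The next Hdac4 region, chr1:92024581-92025000, read 34.86 and 49.76 against 19.12, 57.17 and 110.80, so the well-read WT DMM libraries were above the mutant and the nearly empty one below. At chr1:92284201-92284560 the mutant values were 0.94 and 0 against 9.56, 1.5 and 9.13, which did not overlap, with 4 and 0 reads in the mutant. In WT DMM 1 read was worth 9.56 in the nearly empty library and 0.752 in the second-listed one, so these values, too, rest on very few reads. limma's adjusted p was 0.675, and 0.108 without the nearly empty library. At chr1:92288261-92288540, which overlaps the leading region of the surgery comparison, MUT DMM read 0.70 and 3.55 and WT DMM 0, 6.77 and 7.31. The shallower mutant value is 1 read. The last 2 regions read 0.47 and 3.55 against 0, 2.26 and 7.31, and 0.70 and 3.55 against 0, 3.01 and 7.91, and their groups overlapped. In these last 2 and in the region at 92024581 the mutant mean was above WT DMM once the third-listed WT DMM library was left out, by 0.146 to 0.499 on the log2 scale. The WT DMM mean left then includes the nearly empty library.

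Against sham, 3 intragenic Hdac4 regions were at 0 in both mutant libraries. Sham read 9.01, 10.42 and 8.88 at chr1:92052181-92052660, the lower member region of smallest adjusted p in this comparison (authors' adjusted p = 3.36e-06, limma's adjusted p = 0.00203). Against the limit that a 0 allows in the deeper library the sham mean was at least 4.27-fold higher. The shallower library could not have shown a level of this size. Sham read 11.67, 10.42 and 7.21 at chr1:91936881-91937220, and 6.36, 4.63 and 4.16 at chr1:92119401-92119600, with mutant values of 0. At chr1:91929221-91929420 MUT DMM read 2.21 and 0 against 8.48, 11.58 and 8.88, and at chr1:91897301-91897500 it read 0.74 and 0 against 6.89, 6.95 and 5.55. In these 5 regions every sham library lay above both mutant libraries, and limma's adjusted p ran from 0.00203 to 0.026. The shallower library was at 0 in all 5, and a 0 there allows 28.3 normalized counts, above every sham value. The separation therefore rests on the deeper library alone, although limma counts both.

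At chr1:92115441-92115720, the Hdac4 region with the strongest signal in this comparison, MUT DMM read 84.68 and 18.89 against 104.46, 92.62 and 93.48 in sham (limma's adjusted p = 0.123). The shallower value rests on 2 reads. At chr1:92243781-92244000 MUT DMM read 8.84 and 0 against 21.21, 27.79 and 23.30 (limma's adjusted p = 0.0567). The single higher region, chr1:92144101-92144320, read 2.21 and 9.45 in MUT DMM, or 3 reads and 1 read, and 0, 0 and 0.55 in sham, the last being 2 reads.

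**Figure D5:**
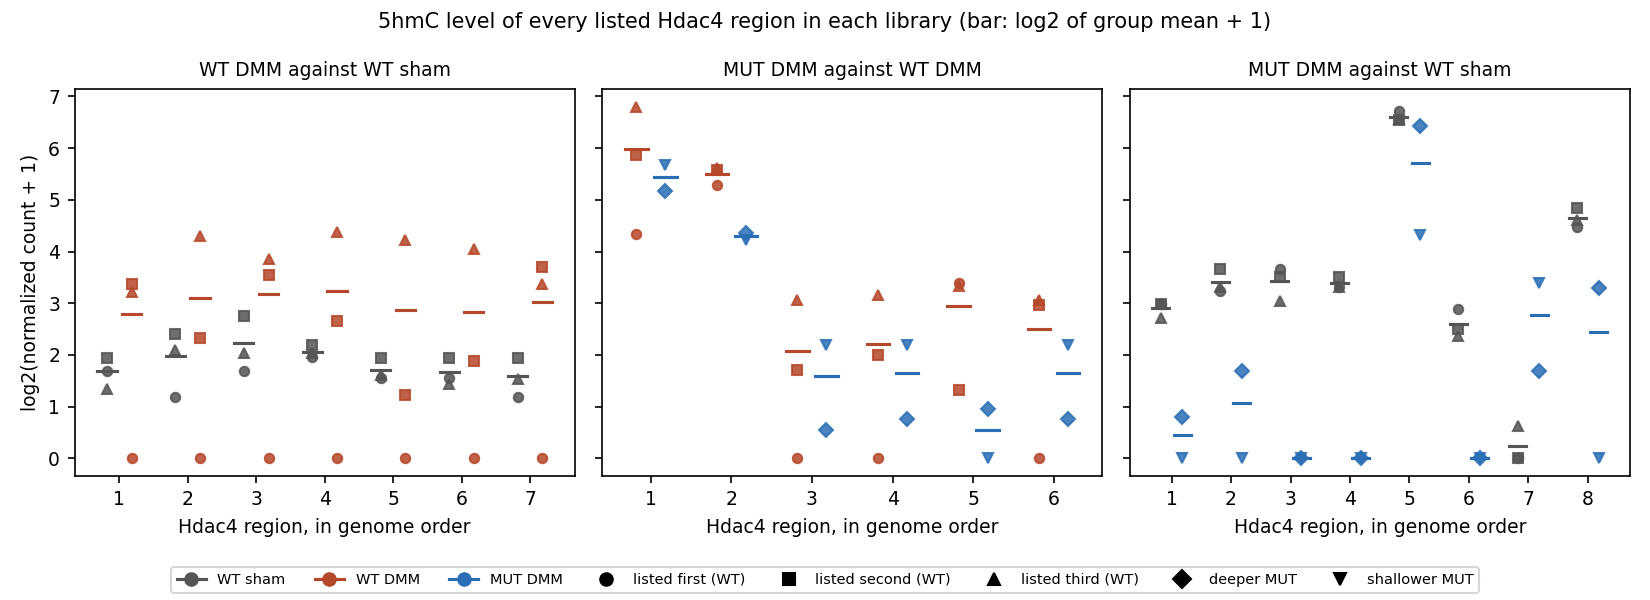
Value of each library, as log2(normalized count + 1), at every listed Hdac4 region in genome order, in the 3 comparisons, with a bar at the log2 of the group mean + 1. The WT DMM library listed first is at 0 in all 7 regions of the first panel, and both MUT DMM libraries are at 0 in regions 3, 4 and 6 of the third.

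Hdac9, another class IIa deacetylase, had 7 higher regions in WT DMM against sham and 12 changed regions in all, 8 higher and 4 lower. Its leading region lay 153233 bases from the gene by the authors' measure, but inside its RefSeq bounds (chr12:34047580-34917095). It read 0, 6.67 and 18.74 in WT DMM against 2.56, 3.58 and 2.05 in sham. The 2 well-read libraries lay above sham and the nearly empty one below.

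Of the 60 genes 33 had a changed region in each comparison. Among these 33, the genes of each class with the most changed regions were Kmt2c, Kmt2d and Kmt2b with 11, 11 and 5, Setd4, Setd8 and Setd3 with 14, 9 and 6, Prdm16, Prdm2 and Prdm6 with 28, 27 and 18, Kdm4c, Kdm2b and Kdm4a with 21, 19 and 13, Kat6b, Kat2b and Kat6a with 18, 15 and 11, and Hdac4, Hdac9 and Hdac7 with 21, 12 and 10. The number of regions was not scaled to gene length. Member regions lay within a gene more often than listed regions as a whole: 71.3%, 76.5% and 79.9% in the 3 comparisons, against 46.3%, 52.2% and 50.9% of all listed regions and 58.4%, 63.2% and 61.8% of those nearest to a protein-coding gene. These shares are a description without a test. Regions of Kdm4dl and Kdm5d may share reads with near-identical copies, so their values are uncertain.

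Other enzymes of histone modification were taken from lists chosen with earlier results known. Their counts, given as higher and lower in the first-named group, can be read against all changed regions, of which 6.55%, 65.4% and 56.5% were lower in the 3 comparisons, taken in the order used so far. Of 31 methyltransferase genes and partners outside the naming rule, 19 had changed regions in WT DMM against sham, 55 higher and 1 lower, the latter at the Polycomb subunit Suz12. In MUT DMM against WT DMM there were 23 higher and 62 lower regions at 21 genes, with 13 lower and 0 higher at Smyd3, and in MUT DMM against sham 46 and 58 at 24 genes. Corepressor scaffolds, which recruit HDACs, had 24 higher and 4 lower, 16 and 31, and 8 and 45 regions in the 3 comparisons, of which 14.3%, 66.0% and 84.9% were lower. Sirtuins had 1 and 1, 2 and 6, and 0 and 12, the last at 5 of 7 genes. Acetyltransferases outside the rule had 24 and 1, 12 and 12, and 13 and 14, demethylases outside it 3 and 3, 6 and 6, and 4 and 4, and arginine methyltransferases 7 and 0, 2 and 7, and 13 and 6. The lists did not all follow the tables: demethylases outside the rule were evenly divided in each comparison, and arginine methyltransferases had 31.6% lower in MUT DMM against sham. Many of these counts are small, and none was tested.

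Genes known to act with HDAC4 in chondrocyte hypertrophy had 78 higher and 8 lower regions in WT DMM against sham, at 13 of 17 genes. Mef2c, which encodes the transcription factor that HDAC4 binds, had 20 higher and 1 lower, Runx2, the osteoblast and hypertrophy factor, 9 and 1, Zfp521 16 and 0, and Sik3, a kinase that acts on class IIa HDACs, 8 and 0. In MUT DMM against WT DMM the list had 21 higher and 64 lower regions, with 2 and 14 at Mef2c and 0 and 5 at Runx2. Against sham, MUT DMM had 39 and 67 in the list, with 7 and 9 at Mef2c, 4 and 9 at Runx2, and 3 and 12 at Sik3. The lower share of the list was 9.3%, 75.3% and 63.2% in the 3 comparisons. The median ratio of the first-named to the second-named group over the list was 2.61, 0.531 and 0.432 in the 3 comparisons, beside 2.63, 0.576 and 0.485 over all changed regions. Over the regions of the enzymes named by the rule it was 2.64, 0.603 and 0.348.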

How the data were processed

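5hmC was measured by RRHP in mouse knee cartilage. The tools in the submitters' processing notes are HISAT2 2.1.0 (the build named is mm10), Trim Galore 0.5.0, bcl2fastq 2.20.0, bedtools and SAMtools. There are 3 tables deposited by the authors, and per the file headers each gives for a region the signal of each group (mean normalized coverage), the joined values of its libraries, and p-values and adjusted p-values of the region and its best window. The deposited nearest gene and distance assign each region to a gene. For the region caller, the scaling of the signal and the test behind the p-values, the name or rule was not given in the sources used here. Only regions holding a window with p of at most 0.0001 are listed.

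Here fold changes were recomputed from the means of distinct libraries, since the deposited fold changes hold spreadsheet errors. Reads were recovered as whole multiples of a step per library (99.9955% to 100% whole within 0.02 normalized counts). The joined values carry no replicate numbers, and libraries are called by the order within a cell. limma 3.58.1 in R 4.3.3 was fitted to log2(normalized count + 1) over every listed region with a mean-variance trend, adjusted by Benjamini-Hochberg, after a test on simulated data. Other steps used Python 3.11.15 and pandas 2.3.3. The labels do not say that each sample is a separate animal, and limma's test weighs only the variation among these libraries, which may be technical. An exact permutation test cannot go below p = 0.1 for 3 libraries against 3 or 0.2 for 2 against 3, so none was run. The members, the gene lists and the tests were chosen with earlier results of these data known. Named genes are, for each comparison and class, the 2 with the most changed regions with their region of smallest adjusted p, every Hdac4 region, the member region of smallest adjusted p in each direction, and up to 3 genes per class with the most changed regions over all tables; regions over promoter windows and a few others were added after values were seen. Alternatives varied the threshold, the p used, a low-value filter, the gene assignment, scaling, pseudocount, the repeated library and each library left out. PCR reads carried no molecular identifiers, so limits from counts of 0 cover counting error only. MUT sham and the background control were not analysed here, and no background was subtracted. A few single-gene results are not reported here.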

Additional observations from a re-analysis of the deposited data

How the results depend on the processing

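No paired analysis was possible because the joined values carry no replicate numbers. With only regions whose larger mean reached 10 normalized counts, WT DMM against WT sham had 9 higher member regions in place of 100, MUT DMM against WT DMM 35 lower in place of 111 beside 63 higher in place of 65, and MUT DMM against WT sham 59 lower in place of 126 and 0 limma calls in place of 105. The WT DMM means used in that filter include the nearly empty library. With libraries scaled to equal totals, 6 regions in place of 2 had no overlap in WT DMM against WT sham.

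Leaving out each library in turn gave 2 to 82 regions without overlap and 0 to 80 limma calls in WT DMM against WT sham, both at their highest without the first-listed WT DMM library; without the second there were 8 regions without overlap, and without the third 1 limma call. In MUT DMM against WT DMM it gave 69 to 120 in place of 66 and 0 to 24 limma calls, again highest without that library. Leaving out a library cannot lower the number of regions without overlap, so those counts could only stay or rise. In MUT DMM against WT sham limma called 65 to 154, lowest without a sham library. Its higher calls, 17, were then 2 to 4. Calls without a MUT DMM library are not given here, since 1 library is left in that group.

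Of the 65 named regions 12 reversed when a library was left out, all 12 without the third-listed WT DMM library and 1 also without the deeper MUT DMM library. Each WT DMM mean left without the third-listed library includes the nearly empty library. The lowest and highest log2 ratios over the libraries left out were, for WT DMM against WT sham, -0.393 and 1.65 at Hdac4 91975381, -0.188 and 1.70 at 92137141, -0.977 and 1.68 at 92161561, -0.438 and 1.68 at 92168161, -0.013 and 1.82 at Setd4 93516681, and -1.44 and 1.70 at Kat6a 22938581. For MUT DMM against WT DMM they were -0.973 and 0.146 at Hdac4 92024581, -1.51 and 0.499 at 92091861 (0.119 without the deeper MUT DMM library), -1.45 and 0.319 at 92264661, -2.06 and 0.373 at Setd4 93553221, -1.88 and 0.499 at Kmt2c 25383461, and -1.67 and 0.064 at Kdm2b 122885341. The cause was not tested. Depth limits the low values: 1 read of the nearly empty library is worth 15.7 or 9.56 normalized counts, and 1 read of the shallower MUT DMM library 3.55 or 9.45.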
